A study of Homo sapiens with 8 samples.

Results

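The genes described here are nuclear genes of the mitochondrial respiratory chain and of ATP synthase, most of which encode subunits. They were chosen by symbol: names that begin with NDUFA, NDUFB, NDUFC, NDUFS or NDUFV and a number (complex I), the names SDHA to SDHD (complex II), and names that begin with UQCR (complex III), COX4 to COX8 (complex IV) or ATP5 (complex V). The choice found 87 of the 18259 genes that had probe sets of their own symbol on the array, of which 38 belong to complex I, 4 to complex II, 8 to complex III, 19 to complex IV and 18 to complex V. Of these, 85 had the 3 probe sets needed for a test, among 16145 genes tested. COX7B2, a testis paralog, kept 2 probe sets, and the pseudogene COX6A1P2 kept 1.

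RNA came from HEK293 cells, a human embryonic kidney line, measured on Affymetrix human exon arrays. The 4 groups were cells with a stable ELL knock-down (labelled shELL) given EGF at 50 ng/mL for 1 h, shELL cells without EGF, control HEK293 cells given the same EGF treatment, and control cells without EGF. Each group had 2 biological replicates, so 8 arrays were compared. The labels do not say whether the shELL line is 1 clone.

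Complexes I to IV pass electrons from NADH and succinate to oxygen and, at complexes I, III and IV, pump protons out of the mitochondrial matrix; complex V uses the return of those protons to make ATP. Most subunits are encoded in the nucleus and imported, while a few come from mitochondrial DNA and are not among the genes described here. ELL is an RNA polymerase II elongation factor, and EGF is a growth factor whose receptor signals to immediate-early genes such as EGR1.

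Gene values are log2 levels, quantile normalized between arrays. EGR1, a transcription factor, had 7.14 and 7.91 in shELL with EGF against 4.14 and 4.05 in shELL without it, and 7.69 and 7.57 in control with EGF against 3.997 and 3.80 in control without it. EGR1 was higher in all EGF arrays, and passed the test in both lines (limma adjusted p = 0.0417 in shELL and 0.0208 in control). ELL had 3.86 and 2.65 in shELL with EGF, 2.93 and 2.63 in shELL without EGF, 2.57 and 2.88 in control with EGF, and 2.54 and 2.50 in control without EGF. The targeted gene was therefore not lower in the arrays labelled shELL, and every difference between the lines below is one between arrays so labelled. Of 11 markers listed for HEK293, 5 (CDH2, EYA1, IRS4, NEFL and VIM) lay above background in all 4 groups, as did 1 of 8 fibroblast, 0 of 6 leukocyte and 2 of 6 striated muscle markers. PAX2 and PAX8, kidney transcription factors, lay below background in every array. One array stood apart: the first replicate of shELL with EGF had a deposited 75th percentile of 2.17, where the others ran from 3.20 to 5.16, and its values correlated with those of the other arrays at a median r of 0.814. Some results that rest on it are given with and without it, and the rest are not shown to hold without it.

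Most of the respiratory chain was expressed. Background was set at 2.62, the 95th percentile of 42 olfactory receptor genes, which these cells are not known to use. Of the 85 genes tested, 66 (77.6%) lay above it in all 4 groups, 11 in some groups and 8 in none, beside 41.5% of all genes tested in all 4 groups. The counts above background in all groups were 30 of 38 for complex I, 4 of 4 for complex II, 4 of 8 for complex III, 12 of 17 for complex IV and 16 of 18 for complex V.

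Paralogs known from muscle, lung or testis sat mostly at background. COX4I2, the lung paralog of COX4I1, had 2.39 and 1.66 in shELL with EGF, 1.45 and 1.91 in shELL without EGF, 1.29 and 2.57 in control with EGF, and 1.71 and 1.33 in control without EGF. Each of these lies under the background level. By the same gene summary, the median polish over a gene's probe sets, COX6B2 and COX8C, both testis paralogs, were above background in none of the groups, and COX6A2 and COX7A1, the muscle paralogs, in 1 group each, as was NDUFA4L2, a paralog of NDUFA4 known from hypoxia. COX4I1, COX6A1, COX6B1, COX7A2, COX7B and COX8A, the widely expressed forms, were above it in all 4. The other genes whose summary lay above background in no group were ATP5L2, NDUFA5, NDUFB1, NDUFB6 and UQCRC1. UQCRC1 encodes a core protein of complex III, and its summary ran from 2.31 to 2.50 over the 8 arrays. Single probe sets gave another picture: with 2.49 as the background of a probe set, set in the same way from olfactory receptor genes, 9 of 19 lay above it for UQCRC1, 3 of 8 for NDUFA5, 2 of 7 for NDUFB1, 2 of 7 for NDUFB6 and 1 of 5 for ATP5L2. These genes are therefore not shown to be silent.

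The genes of this paragraph were taken by role from a list of catalytic, redox and other core genes, after their values had been seen. In each of them the arrays of the 2 lines overlapped. This was not so for UQCRC2 and SDHB of the same list, described below, whose shELL arrays all lay below the control arrays. ATP5B, the catalytic beta subunit of ATP synthase, had 7.06 and 8.14 in shELL with EGF, 7.71 and 8.04 in shELL without EGF, 8.05 and 8.05 in control with EGF, and 8.08 and 8.19 in control without EGF. ATP5A1, its alpha partner, had 6.52 and 6.70 in shELL with EGF, 6.68 and 6.37 in shELL without EGF, 6.92 and 6.44 in control with EGF, and 6.59 and 6.41 in control without EGF. The lowest ATP5B value is that of the first array of shELL with EGF, while the lowest ATP5A1 value, 6.37, came from shELL without EGF. Averaged over EGF states, shELL minus control was -0.35 for ATP5B (95% interval -0.96 to 0.26) and -0.03 for ATP5A1 (-0.51 to 0.46). SDHA, which oxidises succinate, had an interval of -0.72 to 0.52, COX5A, a nuclear subunit of complex IV, one of -0.82 to 0.53, and NDUFV1, which binds NADH at complex I, one of -0.51 to 0.66. Without the first array of shELL with EGF the difference came to -0.08 for ATP5B and 0.01 for ATP5A1, and it was positive for SDHA (0.12, where all arrays gave -0.10) and COX5A (0.18, where all arrays gave -0.15). Of the iron-sulfur subunits of complex I, NDUFS1 and NDUFS7 lay above background in all 4 groups, NDUFV2 in 3 and NDUFS8 in 1, and UQCRFS1, the Rieske iron-sulfur protein of complex III, in 1.

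The names missed subunits whose symbols have another form, among them CYC1 and NDUFAB1, which are listed here with the assembly factors and electron carriers. The names also took in genes that are not subunits or that measure a mixture. COX4NB is now EMC8, a subunit of an endoplasmic reticulum complex, ATP5SL is DMAC2 and ATP5S is DMAC2L, both named as assembly factors. NDUFA4L2, now COXFA4L2, and NDUFA4 were kept under complex I here. NDUFA4 is now counted as a complex IV subunit. Its deposited probe sets lie on chromosome 7 (7 probe sets) and chromosome 1 (1 probe set), and those of COX6A1 lie on chromosome 12 (4) and chromosome 6 (4), so either value may include signal from a near-identical copy.

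**Figure D1:**
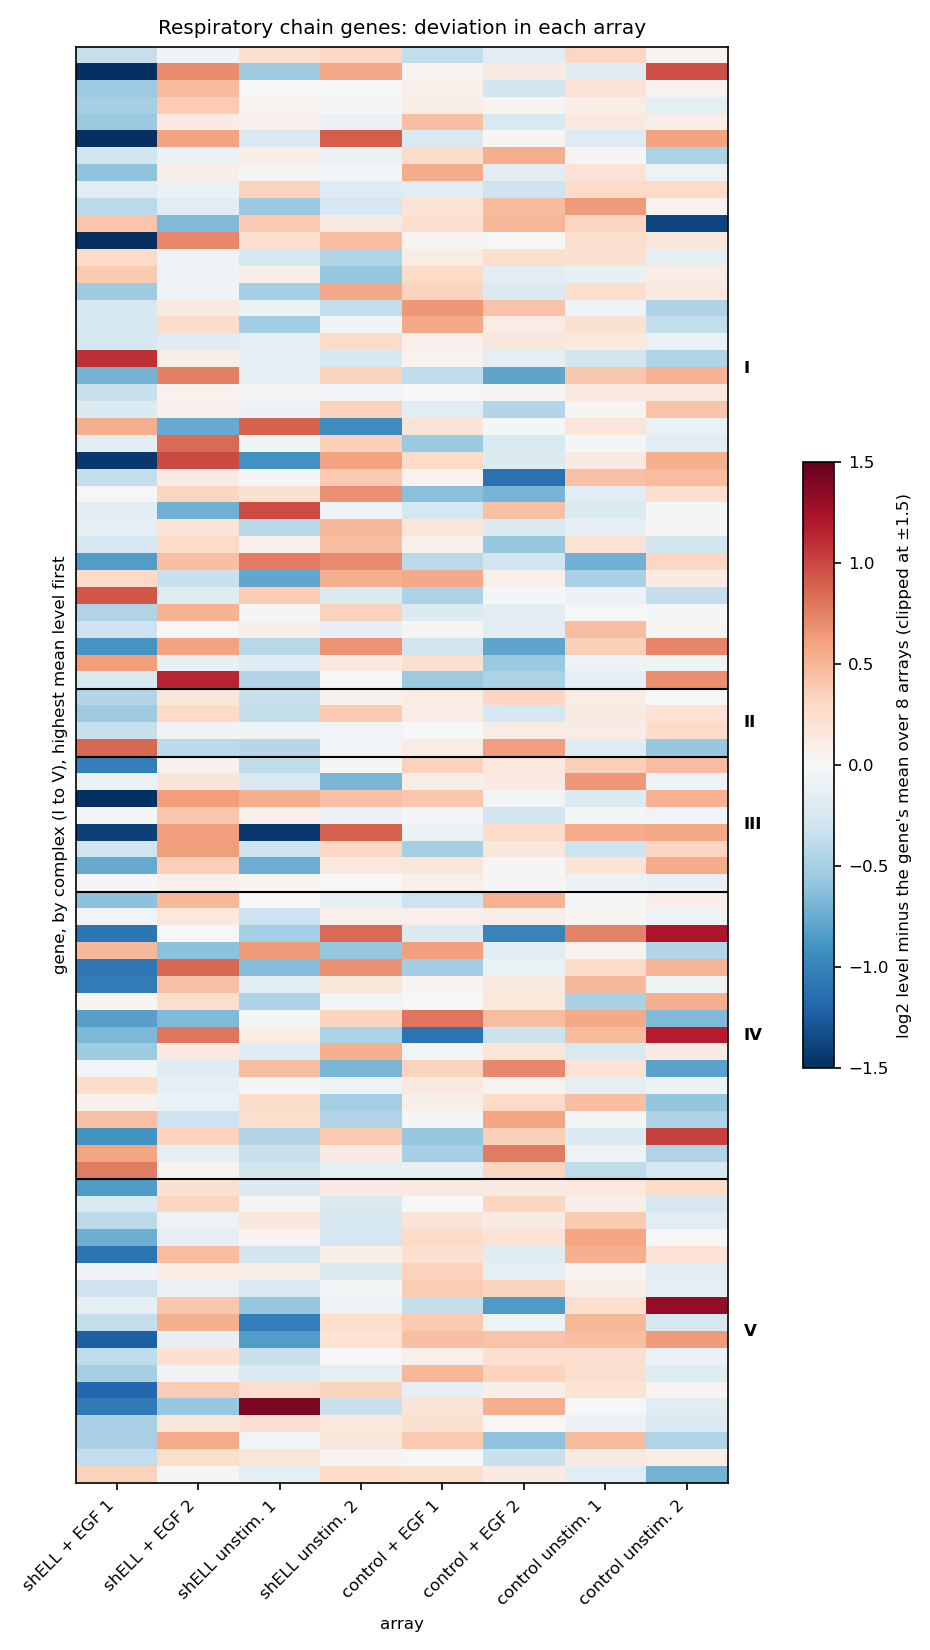
Each row is 1 of the 85 genes tested, grouped by complex and ordered by mean level within it, and each column 1 array; colour gives the log2 level minus that gene's mean over the 8 arrays, clipped at ±1.5. The first array of shELL with EGF holds the lowest value of 40 of the 85 genes (47.1%), beside 25.2% of all genes and 43.5% of the genes above background in all groups.

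Promoter windows were available for 69 of the genes in the RefSeq table (GRCh38.p14), 250 bases before to 50 after the start. Both strands were searched for short motifs, and a match is only a match of letters. GCGCANGCG, the NRF1 motif, was found in 22 of 69 windows (31.9%), beside 12.5% of 15843 coding genes. CCGGAAG, the ETS motif read by GABPA, was found in 21 (30.4%), beside 16.5%, and AAGATGGCG, the YY1 motif, in 9 (13.0%), beside 3.21%. NRF1 and GABPA are textbook regulators of respiratory chain genes. The other motifs had shares nearer those of all genes: 11.6% beside 15.7% for the EGR1 motif GCGNGGGCG, 60.9% beside 64.3% for the SP1 motif GGGCGG and 10.1% beside 12.4% for TATAAA. A second coding gene started on the opposite strand within 1000 bases upstream of 23 of the 69 genes (33.3%), beside 12.3% of coding genes.

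The bases before the start of 6 of these genes are shown because they hold the NRF1 and ETS matches that were more frequent than among all genes; matches to the NRF1 or ETS motif, on either strand, are in capitals. NDUFS3 (a core subunit of complex I; chr11:47578971-47579073, plus strand), UQCRH (the hinge protein of complex III; chr1:46303617-46303697, plus strand) and ATP5J (a stalk subunit of complex V, now ATP5PF; chr21:25734905-25734971, minus strand) each share the stretch with a divergent gene, KBTBD4, LRRC41 and GABPA in that order, and hold ETS matches. SDHA (the flavoprotein of complex II; chr5:218154-218319, plus strand), shared with CCDC127, holds 4 NRF1 matches. UQCRC1 (chr3:48609647-48609796, minus strand) holds 2 and NDUFS6 (an accessory subunit of complex I; chr5:1801257-1801406, plus strand) holds 1.
NDUFS3: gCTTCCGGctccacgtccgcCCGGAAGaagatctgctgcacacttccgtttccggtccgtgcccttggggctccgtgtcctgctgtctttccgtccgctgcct
UQCRH: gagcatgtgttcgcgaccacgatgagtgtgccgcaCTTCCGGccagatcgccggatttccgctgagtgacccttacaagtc
ATP5J: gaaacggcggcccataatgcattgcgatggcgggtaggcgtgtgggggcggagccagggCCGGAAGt
SDHA: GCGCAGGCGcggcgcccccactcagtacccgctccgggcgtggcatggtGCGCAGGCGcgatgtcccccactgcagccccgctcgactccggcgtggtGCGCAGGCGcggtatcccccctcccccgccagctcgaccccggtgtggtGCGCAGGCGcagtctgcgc
UQCRC1: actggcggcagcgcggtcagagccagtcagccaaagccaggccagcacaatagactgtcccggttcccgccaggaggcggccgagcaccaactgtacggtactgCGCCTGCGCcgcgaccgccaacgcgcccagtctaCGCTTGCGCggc
NDUFS6: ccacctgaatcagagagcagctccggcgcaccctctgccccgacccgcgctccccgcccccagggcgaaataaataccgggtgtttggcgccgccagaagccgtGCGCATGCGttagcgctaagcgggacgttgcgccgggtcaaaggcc

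**Figure D2:**
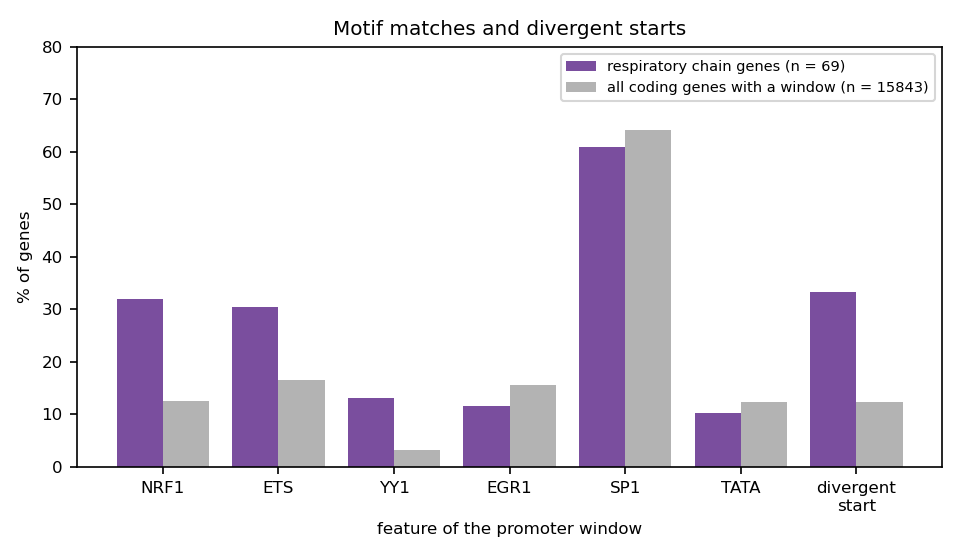
Bars give the percent of genes whose RefSeq window holds each motif, or that have a divergent coding start within 1000 bases, for the 69 respiratory chain genes (left bar of each pair) and for 15843 coding genes. The NRF1 bars stand at 31.9% and 12.5%, and the SP1 bars at 60.9% and 64.3%.

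No respiratory chain gene differed between shELL and control cells at an adjusted p under 0.05, with EGF, without it, or averaged over both states (limma with Benjamini-Hochberg adjustment over all 16145 genes; 0 of 85 in each, beside 0% of all genes). The median 95% interval of a single gene reached 0.61 on the log2 scale to either side in the averaged comparison and 0.86 with or without EGF alone. These intervals are not adjusted for the number of genes tested, so with 2 arrays a group a call needed larger differences. Outside the respiratory chain, IRS4 at -1.53 in the averaged comparison was not called (limma adjusted p = 0.989). The absence of calls therefore does not show that the levels were equal. In bulk RNA, expression of a gene in fewer of the cells and a lower level of it in each cell cannot be told apart. Averaged over EGF states, 27 genes had a positive and 58 a negative difference, with a median of -0.10 beside -0.003 for all genes. The split depended on the scaling between arrays: with the values as deposited it was 45 positive and 40 negative, with a median of 0.04 beside 0.15 for all genes. Without the first array of shELL with EGF the median was -0.003.

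Before adjustment, 5 of the 85 genes reached p under 0.05 in the averaged comparison, beside 2.64% of all genes. In 4 genes all 4 shELL arrays lay below all 4 control arrays (beside 1.47% of genes), and in 0 they all lay above (beside 1.11%). ATP5G2, 1 of the 3 genes that encode subunit c of the ATP synthase ring, had 4.65 and 5.75 in shELL with EGF, 5.04 and 6.09 in shELL without EGF, 6.32 and 6.30 in control with EGF, and 6.33 and 6.51 in control without EGF. The shELL arrays were all lower, and the replicate 1 arrays lowest. The log2 difference was -0.98 (SE 0.32, 95% interval -1.70 to -0.26, limma adjusted p = 1.00), and -0.57 without the first array of shELL with EGF. The other 2 subunit c genes overlapped between the lines, with differences of -0.07 for ATP5G1 and -0.34 for ATP5G3.

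NDUFA2, an accessory subunit of complex I, had 5.01 and 5.26 in shELL with EGF, 4.87 and 5.17 in shELL without EGF, 5.62 and 5.90 in control with EGF, and 6.05 and 5.48 in control without EGF. The highest shELL value, 5.26, lay under the lowest control value, 5.48. The difference was -0.68 (SE 0.23, limma adjusted p = 1.00), and from -0.86 to -0.50 as each array was left out in turn. UQCRC2, a core protein of complex III, had 6.12 and 7.21 in shELL with EGF, 6.76 and 7.16 in shELL without EGF, 7.49 and 7.30 in control with EGF, and 7.50 and 7.60 in control without EGF. Its difference of -0.66 (SE 0.27, limma adjusted p = 1.00) came to -0.26 without the first array of shELL with EGF, which holds its lowest value. SDHB, the iron-sulfur subunit of complex II, was the fourth gene, with 5.44 and 5.72 in shELL with EGF, 5.71 and 5.74 in shELL without EGF, 5.77 and 5.88 in control with EGF, and 5.88 and 6.05 in control without EGF; the difference was -0.24 (SE 0.20). The other 2 genes with an unadjusted p under 0.05 were NDUFS6, at 0.61, and ATP5J2, subunit f of complex V, at -0.55; in both the arrays of the 2 lines overlapped.

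Without EGF, 2 genes reached an unadjusted p under 0.05 (beside 1.28% of all genes): NDUFA2 and ATP5F1, the stator subunit b of complex V, at -1.09, or -0.53 without the second control array without EGF. With EGF there were 4, beside 3.17% of all genes. COX5B, a nuclear subunit of complex IV, had 3.69 and 3.84 in shELL with EGF against 5.31 and 4.96 in control with EGF, a difference of -1.37 (SE 0.41, limma adjusted p = 1.00). Without EGF it had 4.48 and 4.83 in shELL against 5.07 and 3.84 in control, where the arrays overlapped. ATP5G2 and ATP5I, subunit e of complex V, were the other 2 lower in shELL with EGF, at -1.11 and -1.19, which came to -0.26 and -0.68 without the first array of shELL with EGF. NDUFS6 was the 1 higher, with 3.52 and 3.85 in shELL with EGF against 2.91 and 2.83 in control with EGF, a difference of 0.82 (SE 0.31), and 1.29 without the first array of shELL with EGF.

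**Figure D3:**
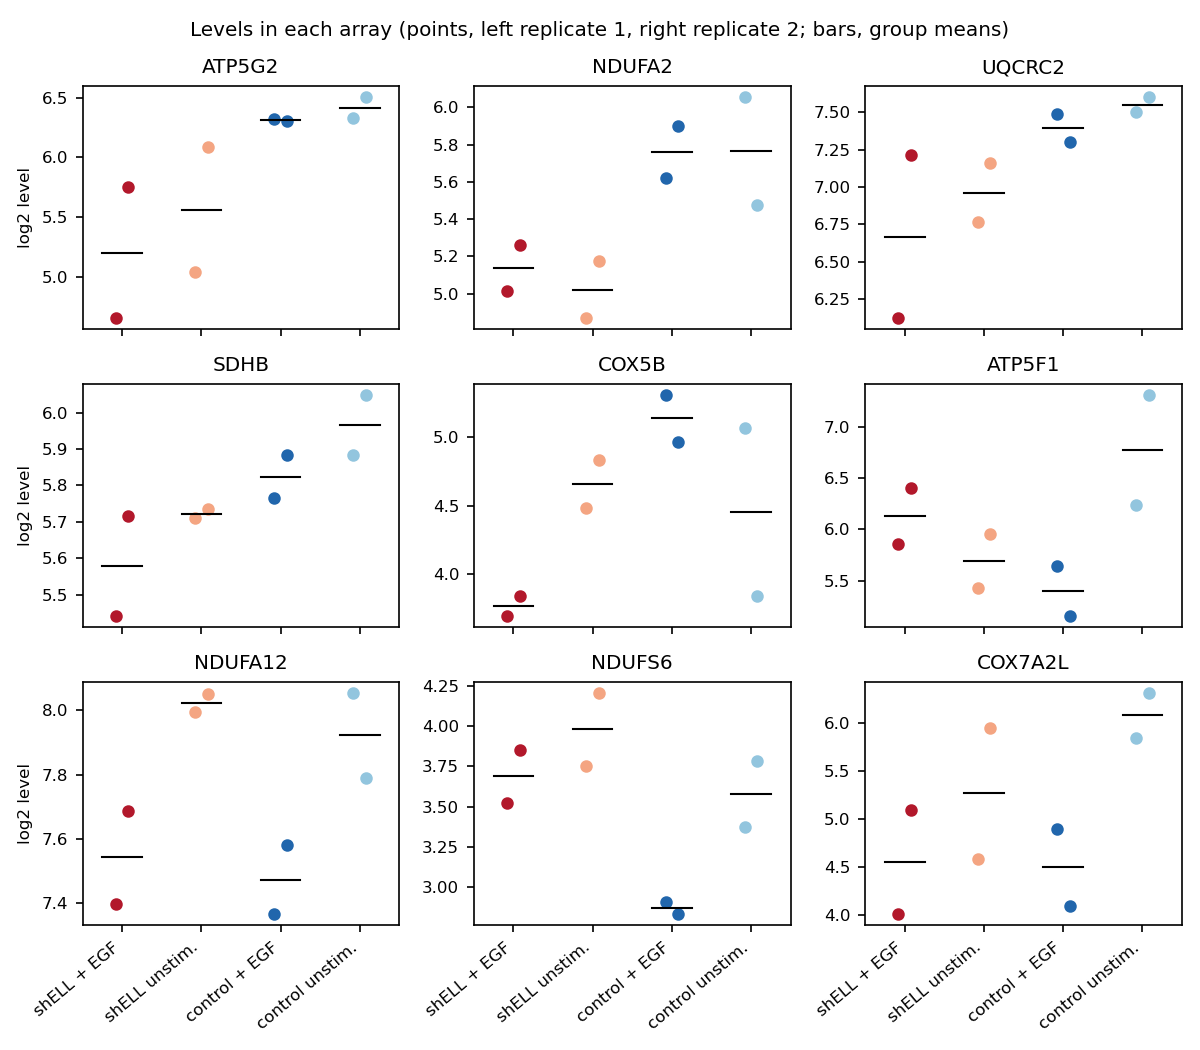
Log2 levels of 9 genes in each array (points; left replicate 1, right replicate 2) with group means (bars), on axes that differ between panels. ATP5G2, NDUFA2, UQCRC2 and SDHB have all 4 shELL arrays below all 4 control arrays, with the narrowest margin in SDHB.

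By complex, the medians of the averaged shELL differences were -0.06 for complex I, -0.17 for complex II, -0.37 for complex III, -0.10 for complex IV and -0.25 for complex V, beside -0.003 for all genes. Negative differences numbered 22 of 38, 3 of 4, 5 of 8, 14 of 17 and 14 of 18 in that order, beside 50.4% of all genes. Without the first array of shELL with EGF the medians were 0.08, -0.15, 0.13, -0.08 and -0.06, beside -0.04 for all genes, so that those of complexes I and III changed sign. The negative differences then numbered 16, 3, 3, 10 and 11, beside 56.8% of all genes.

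EGF changed no respiratory chain gene at an adjusted p under 0.05 in control cells, in shELL cells or averaged over the lines (0 of 85 in each). EGR1 was the only gene of 16145 called, which is 0.00619% in each of the 3 comparisons. The median differences of the 85 genes were -0.10 in shELL and -0.02 in control, beside 0.00 and 0.07 for all genes; without the first array of shELL with EGF the shELL median was 0.16. In shELL 32 genes had a positive and 53 a negative difference, and the values as deposited gave 2 and 83, where 5.9% of all genes were positive.

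In control cells 6 genes reached an unadjusted p under 0.05, beside 2.69% of all genes, and 5 of them were lower with EGF, of which 4 are described. ATP5F1 had 5.64 and 5.15 with EGF against 6.24 and 7.31 without it, a difference of -1.38 (SE 0.42, limma adjusted p = 0.996), which came to -0.38 without the second control array without EGF. COX7A2L, a protein that joins complexes III and IV, had 4.89 and 4.10 with EGF against 5.84 and 6.31 without it, a difference of -1.58 (SE 0.54), or -0.91 without the second control array with EGF. In neither gene did the 2 groups overlap, which is common with 2 arrays against 2. Both EGF arrays of control lay below both without EGF in 25 of 85 members, beside 2536 of 16145 genes. COX7C, a small complex IV subunit, stood at -1.54 (from -1.47 to -0.60 as each array was left out in turn and the rest normalized anew, and -0.05 with the mean of its probe sets) and NDUFS6 at -0.71. NDUFB4, an accessory subunit of complex I, was the 1 higher gene, with 5.12 and 4.90 with EGF against 4.40 and 4.005 without it, a difference of 0.80, or 0.47 without the second control array without EGF.

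In shELL cells 1 gene, ATP5I, reached an unadjusted p under 0.05, beside 2.47% of all genes, with a difference of -1.35, or -0.52 without the first shELL array without EGF. Averaged over the lines 3 did, beside 3.17% of all genes: COX7A2L at -1.15, NDUFA12 at -0.46 and NDUFS6 at -0.50. As each array was left out in turn, these ran from -1.45 to -0.70, -0.56 to -0.32 and -1.16 to -0.40. NDUFA12, an accessory subunit of complex I, had 7.40 and 7.69 in shELL with EGF against 7.99 and 8.05 in shELL without it, and 7.37 and 7.58 in control with EGF against 8.05 and 7.79 in control without it. It was the 1 gene whose 4 EGF arrays all lay below the 4 unstimulated ones (beside 1.13% of genes; limma adjusted p = 0.901). COX8C was the 1 gene with all 4 above (beside 1.58% of genes), at levels below background.

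**Figure D4:**
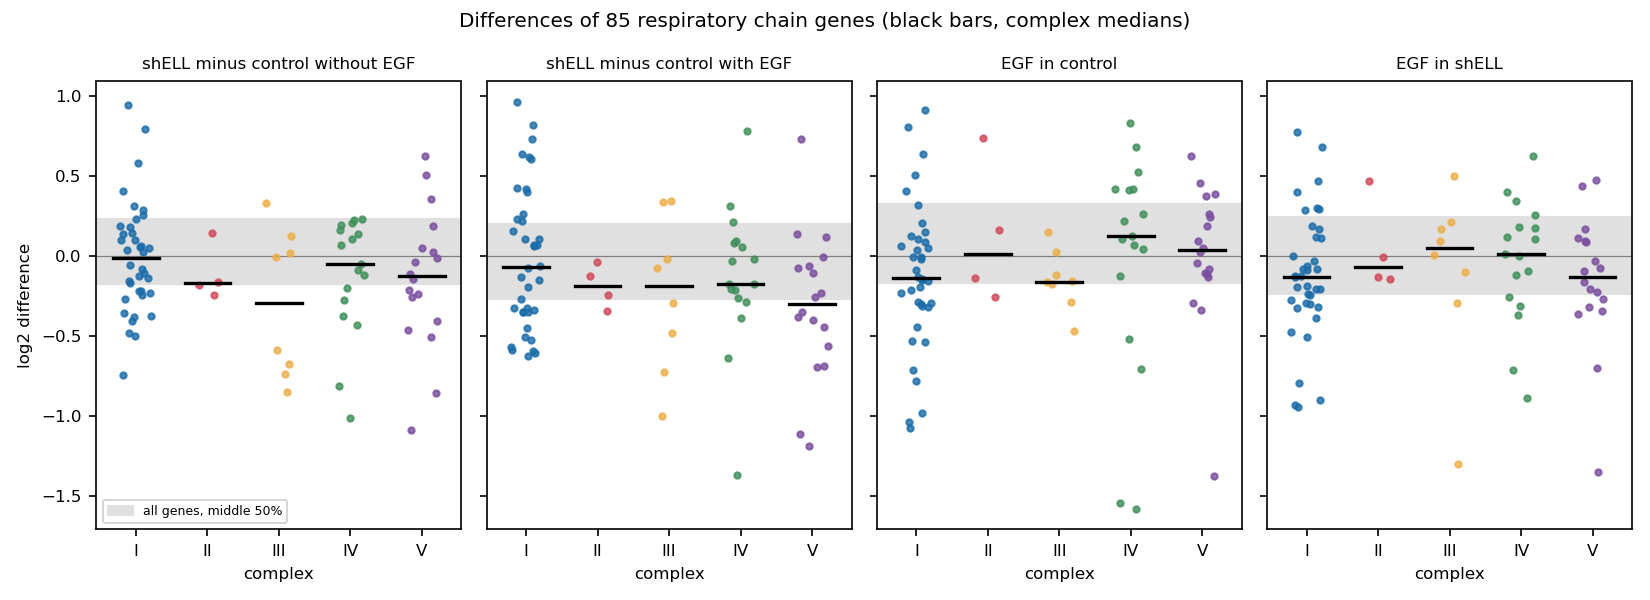
Each point is the log2 difference of 1 gene, by complex, in 4 comparisons; black bars are complex medians and the grey band holds the middle 50% of all 16145 genes. The points of every complex spread to both sides of 0, except complex II in shELL against control with EGF, where all 4 lie below it. Without the first array of shELL with EGF, which is included in the figure, 3 of these 4 differences were negative.

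The EGF change did not differ between shELL and control for any member at an adjusted p under 0.05 (0 of 85, beside 0% of all genes), and 4 genes had an unadjusted p under 0.05, beside 1.73% of all genes. The change in shELL minus that in control was 1.82 for ATP5F1 (SE 0.60), 1.80 for COX7C (SE 0.74), -1.57 for COX5B (SE 0.58) and -1.81 for ATP5I (SE 0.72), each with a limma adjusted p of 1.00. Leaving out 1 array brought these to 0.83, 0.71, -0.79 and -1.16 at the nearest to 0. The same control and shELL arrays enter these values and the ones above, so they are not separate evidence. The COX7C value also contains its change in control cells, which came near 0 with the mean of its probe sets, as given above.

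Replicate arrays of the shELL groups differed widely in these genes. In 40 of 85 (47.1%) both replicate 1 arrays of shELL were below both replicate 2 arrays, and in 9 (10.6%) they were above, beside 23.6% and 33.3% of all genes. Among the genes above background in all groups, the share below was 50.0% of 66 respiratory chain genes, beside 40.3% of all such genes. UQCR10, a small complex III subunit, had 1.44 and 3.46 in shELL with EGF, 1.39 and 3.72 in shELL without EGF, 2.75 and 3.13 in control with EGF, and 3.40 and 3.41 in control without EGF. Both low values are replicate 1 of shELL. NDUFS3 had 5.22 and 7.62 in shELL with EGF, 6.38 and 7.48 in shELL without EGF, 6.95 and 7.03 in control with EGF, and 6.73 and 7.88 in control without EGF. NDUFA8, COX6B1 and NDUFB8 had gaps of the same kind.

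The gap was also seen in genes outside the respiratory chain, in some lists more often than in others. GAPDH, a glycolytic enzyme, had 6.61 and 8.72 in shELL with EGF, 6.64 and 8.23 in shELL without EGF, 7.48 and 6.85 in control with EGF, and 8.03 and 9.10 in control without EGF. Both replicate 1 arrays of shELL were below both replicate 2 arrays in 77.8% of 18 tricarboxylic acid cycle genes, 70.6% of 17 glycolysis genes and 56.3% of 71 cytosolic ribosomal protein genes. The share was 46.7% of 15 genes of uncoupling and reactive oxygen defence, 33.3% of 72 mitochondrial ribosomal protein genes, 33.3% of 21 import genes, 31.9% of 47 assembly factors and carriers, and 27.3% of 22 regulators of mitochondrial biogenesis. Among the last, 36.4% lay the other way, and so did 59.5% of the 42 olfactory receptor genes, of which 2.38% had the gap. The lists also differed in level, and the part of level in these shares was not tested. Above background in all 4 groups were 16 of 18 tricarboxylic acid cycle, 16 of 17 glycolysis and 64 of 71 cytosolic ribosomal protein genes. For mitochondrial ribosomal protein genes it was 49 of 72, and for regulators of mitochondrial biogenesis 9 of 22. The part of array quality in the gap was not tested. Before normalization the replicate 1 arrays of shELL had medians of 1.33 with EGF and 1.93 without it. The replicate 2 arrays had 2.70 and 2.95, and the control arrays ran from 1.77 to 2.44. The difference between 3′ and 5′ probe sets of a gene had a median that was similar in all arrays, from -0.50 to -0.45.

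**Figure D5:**
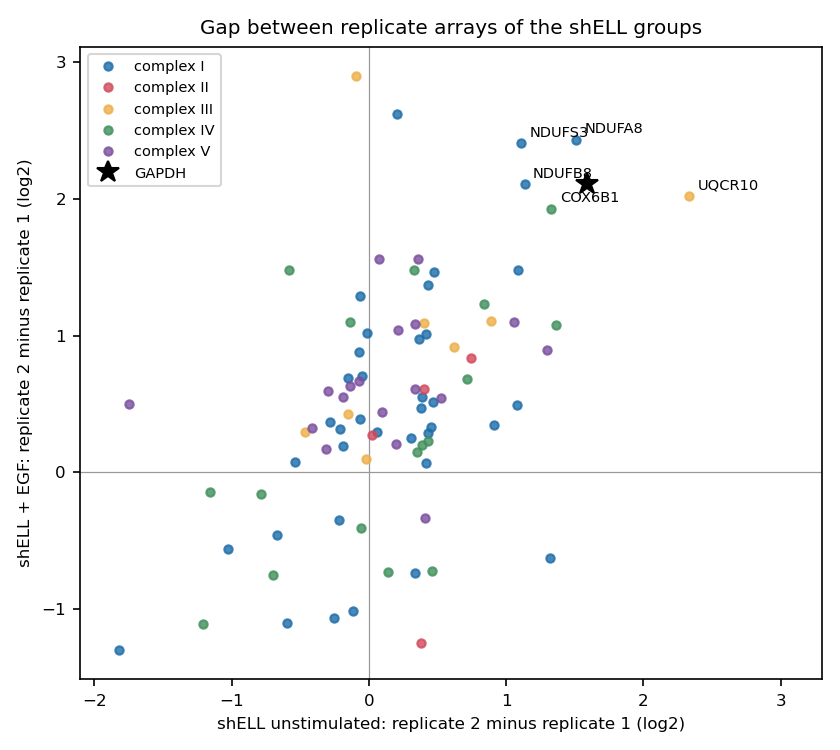
Each point is 1 respiratory chain gene; the axes give replicate 2 minus replicate 1 (log2) in shELL without EGF (x) and with EGF (y), and the star is GAPDH. GAPDH lies in the upper right among the labelled genes, which have the 5 widest mean gaps, and UQCR10 lies farthest right.

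Genes listed beside the chain gave no calls either, where at most 0.00619% of all genes were called in a comparison. Of 47 assembly factors and electron carriers, 18 tricarboxylic acid cycle genes, 22 regulators of mitochondrial biogenesis and 72 mitochondrial ribosomal protein genes, 0 passed the adjusted test in any of the 7 comparisons. Their median shELL differences averaged over EGF states were -0.12, -0.08, 0.07 and -0.08 in that order, beside -0.10 for the respiratory chain genes and -0.003 for all genes. These medians include the first array of shELL with EGF, without which that of the respiratory chain genes was -0.003.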

How the data were processed

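The deposited log2 probe-set values of 8 arrays were made by the authors with Affymetrix Expression Console and RMA, per the submitters' processing notes; the sources used here give neither versions nor the build of the deposited positions. Array medians ran from 1.33 to 2.95, so quantile normalization was applied. Probe sets with 1 symbol and a mean at or above the 25th percentile were kept. Genes with at least 3 of these were summarised by median polish. Of 722 member probe sets 642 were kept, among them the 2 of COX7B2 and the 1 of COX6A1P2, which were not tested. Differences were fitted with limma 3.58.1 in R 4.3.3 as 4 group means over 8 arrays, in 7 comparisons, with two-sided p-values. The number of arrays limits the precision. The procedure was tested on simulated data, where its pass mark was lowered after a first run fell just short; the fit was not changed. Genes were named by role (catalytic core, paralogs, subunit c, genes that are not subunits) and as the 3 of smallest p in each direction; UQCR10, NDUFA8, NDUFB8, NDUFA5, NDUFB1, NDUFA7, IRS4, and the promoter windows shown were chosen after values or matches were seen. The members and lists were chosen with earlier results of these data known. Symbols were matched to RefSeq (66 current, 20 synonyms, 1 unmatched). Alternatives covered normalization, filters, gene summary, variance model, array weights, replicate blocks and each array left out. One gene is not reported here by name.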

Additional observations from a re-analysis of the deposited data

Results flagged for a closer look

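ATP5I, subunit e of ATP synthase, was flagged because its EGF arrays lay below the unstimulated ones in shELL and above them in control. Only genes already named by p, and the medians of the members and complexes, were searched for such opposite differences. Of 16145 genes, 1862 lay wholly below with EGF in shELL and 3959 wholly above in control. The share with both was not counted, so the flag is not separate evidence. It had 2.88 and 3.37 in shELL with EGF against 5.35 and 3.61 in shELL without it, and 4.14 and 4.49 in control with EGF against 3.93 and 3.78 in control without it. The change in shELL minus that in control was -1.81, with a limma adjusted p of 1.00, and -1.17 without the first array of shELL with EGF.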

How the results depend on the processing

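No respiratory chain gene was called under any alternative run; the smallest adjusted p was 0.0917, for EGF in shELL without the second array of that group, where 20 members and 23.9% of all genes had an unadjusted p under 0.05. Of 137 median differences under the alternatives, 128 moved by less than the spread of array medians (0.33). Each median difference of the main setting was smaller in size than this spread, so a median that changed sign could be among them. The spread also includes the first array of shELL with EGF, whose median was the lowest. The other variance model, array weights, replicate blocks and fits of only the compared groups left the medians unchanged. The count therefore does not show that the medians were stable. With values as deposited, the medians were -1.18 for EGF in shELL, -0.64 for EGF averaged, 0.59 for shELL against control before EGF, -0.51 after it and -1.16 for the interaction; the median of all genes moved too (-0.68, -0.36, 0.49, -0.17 and -0.66). With array median centring they were -0.73 for EGF in shELL, 0.27 for shELL against control before EGF, -0.59 after it and -0.83 for the interaction, beside -0.25, 0.18, -0.25 and -0.43 for all genes. Of the genes named by p, those that changed sign were, as deposited, NDUFA11 (-0.52) and NDUFS5 (-0.90) for EGF in shELL, and NDUFB4 (-0.28) and NDUFA11 (-0.22) for EGF averaged, and, with median centring, NDUFA11 (-0.11) and NDUFS5 (-0.49) for EGF in shELL. Of those named by role, with small averaged shELL differences, COX5A changed sign as deposited (0.079), and NDUFV1 with median centring (-0.12) and with the mean of probe sets (-0.044). As each array was left out, 5 of them took both signs: ATP5A1 (-0.14 to 0.10), COX5A (-0.40 to 0.18), NDUFV1 (-0.18 to 0.14), SDHA (-0.27 to 0.12) and ATP5G1 (-0.20 to 0.058). The cause was not tested. Members with a positive difference numbered 66 of 85 with median centring and 76 as deposited for shELL against control before EGF, against 37 in the main setting, where 71.4%, 92.4% and 53.7% of all genes were positive. Members with an unadjusted p under 0.05 ran from 0 as deposited to 20. Over all genes, EGF in control gave 1 call in the main setting, 0 with the values as deposited and 2 with the replicate block. Leaving out the first array of shELL with EGF turned the median to 0.16 for EGF in shELL, 0.07 for EGF averaged, 0.09 for shELL against control with EGF and 0.14 for the interaction, and leaving out the first shELL or the first control array without EGF turned the median of shELL against control before EGF to 0.01 and 0.04. The labels do not say that replicate numbers mark a shared batch, and same-numbered arrays did not deviate together throughout: the correlations were 0.51, 0.42 and 0.37 among both shELL groups and control without EGF, and -0.31, -0.24 and -0.16 for control with EGF against these. With the replicate block 0 members were called. The medians could not change with it, since each group holds 1 array of each replicate number. With the numbers of control with EGF exchanged, an alternative chosen after seeing these correlations, 0 members were called, and those with an unadjusted p under 0.05 numbered 11 for EGF averaged, beside 8.89% of all genes, against 3 and 3.17% in the fit without a block. Using only RefSeq mRNA probe sets, also chosen after seeing the data, called 0. Fitting only the arrays of the groups compared gave no value for the averages or the interaction.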

Other observations

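IRS4, an insulin receptor substrate known for its high level in HEK293 cells, had 2.47 and 2.95 in shELL with EGF, 2.52 and 3.12 in shELL without EGF, 4.52 and 3.60 in control with EGF, and 4.62 and 4.44 in control without EGF. All 4 shELL arrays lay below all 4 control arrays. The log2 difference averaged over EGF states was -1.53 (SE 0.28, unadjusted p = 0.000367), with a limma adjusted p of 0.989 over all genes. It was singled out after its values were seen. RPS28, a ribosomal protein gene that starts 121 bases from NDUFA7 on the opposite strand, had 8.46 and 10.06 in shELL with EGF and 9.25 and 10.04 in shELL without EGF. NDUFA7, an accessory subunit of complex I, had 3.33 and 4.80 and 3.91 and 4.38 in the same arrays. In both genes the replicate 1 arrays of shELL were the lower ones. This pair was picked after its values were seen, from 23 genes with a divergent start, and not all pairs were alike. ATP5C1 had 5.85 and 7.40 and 6.67 and 7.03 in these arrays, with replicate 1 lower. Its divergent neighbour KIN, at levels below background, had 2.16 and 1.93 and 2.16 and 1.84, with replicate 1 higher. A link between divergent neighbours was not tested.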
